A study of Rattus norvegicus with 30 samples.

Results

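Of all regions compared in these data, the one with the smallest p for a difference in peak height between prenatal alcohol exposure (PAE) and control (CON) lies on rat chromosome 10, at chr10:98550454-98553010 (Rn6), where PAE was lower, and the question asked here was whether the regions around it were lower as well. The neighbourhood was every merged methylated DNA immunoprecipitation (meDIP-seq) peak region that had a called peak in at least 3 libraries and overlapped chr10:97550454-99553010, 1 Mb on each side. It held 406 of the 352026 autosomal regions tested: the chosen region itself, 208 neighbours on its left and 197 on its right. The chosen region was chosen by its PAE minus CON difference in these same libraries, so its own heights are given as a description, and the window around it was placed by that difference too. Over its neighbours, the difference between PAE and CON was close to that over all tested regions, with a median log2 difference of -0.06 beside -0.05. Of the 405 neighbours, 30 (7.41%) were lower in PAE than in CON at an unadjusted p under 0.05, beside 6.03% of all tested regions, and none passed an FDR of 0.05 (smallest adjusted p = 0.661, limma).

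The libraries came from the prefrontal cortex (PFC) of outbred Sprague-Dawley rats at postnatal day 22, the time of weaning, with 10 animals in each of 3 groups. PAE animals came from dams given a liquid diet with ethanol as 36% of the calories (6.37% v/v) from gestation day 1 to 21. Each pair-fed (PF) dam was matched to a PAE dam and limited to that dam's intake of an alcohol-free liquid diet, whose missing calories came from maltose-dextrin. Food was unrestricted for the CON dams, which ate that alcohol-free formula as pellets. Each group held 1 animal labelled female and 1 labelled male from each of 5 dams, so the 10 animals of a group shared 5 litters. Whole tissue was used, so neurons, glia and other cells were measured together and a change in the mixture of cells cannot be told apart from a change within them.

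In meDIP-seq, an antibody pulls down DNA fragments that carry methylated cytosine, and a peak is a stretch where more fragments were recovered than in its surroundings. A peak therefore marks DNA methylation (DNAm) weighted by how many methylated CpG sites a fragment holds. Brain DNA is methylated at most CpG sites outside active promoters and enhancers. The height used throughout is the highest pileup, the number of fragments stacked at a summit, per 1000000 filtered fragments of the library. Libraries with no called peak in a region were set to a common floor of 0.438, because coverage below the threshold of the peak caller was not in the peak lists, and the same floor was applied to called heights under it.

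Genes could be named only from either side of the window, by the differentially methylated regions (DMRs) that the study listed with a gene. The nearest such DMR on the left lies at chr10:97093260-97094088 and is assigned to Cep112, a centrosomal protein gene. On the right the nearest lies at chr10:101795018-101795323 and is assigned to Slc39a11, a zinc transporter gene. These are positions of DMRs, and how far the genes themselves reach was not determined. In the GRCr8 assembly, which is not the build of the peaks and served only for gene order, 23 protein-coding genes run from Cep112 to Slc39a11, both included. In that order they include Axin2, a scaffold that limits Wnt signalling, Prkar1a, a regulatory subunit of protein kinase A, the lipid transporter genes Abca8, Abca9, Abca6 and Abca5, Map2k6, a kinase upstream of p38, the inward rectifier potassium channel genes Kcnj16 and Kcnj2, and Sox9, a transcription factor of astrocytes and of cartilage. Which of them lie inside the window was not determined.

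Filtered fragments ranged from 11548314 to 16555049 per library. Autosomal peaks ranged from 103898 to 208631 per library and averaged 151576 ± 26759 (SD, n = 10) in CON, 135828 ± 26494 in PAE and 143998 ± 19297 in PF. Sex labels went against the sex chromosomes in 18 libraries: 7 libraries carried 2.65 to 3.14% of their peaks on chromosome X with 4 to 11 peaks on chromosome Y, and the other 23 carried 0.774 to 1.15% with 38 to 87, which went with the label in the other 12. Lanes were not spread evenly over the groups, since lane 4 held no PF library and lane 7 no PAE library. Where lane, label or litter touches a result, its value is given beside that result.

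At the chosen region, all 10 CON libraries had a peak, as did 9 of the 10 PF libraries and 3 of the 10 PAE libraries. CON heights ran from 0.977 through a median of 1.48 to 2.42. PF heights ran from the floor, in the 1 library without a peak, through a median of 1.10 to 1.51, and PAE heights from the floor, which was also their median, to 1.84. The groups overlapped: the 3 PAE peaks, of 0.930, 1.10 and 1.84, lay largely within the CON range, and the separation rested on the 7 PAE libraries without one.

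**Figure D1:**
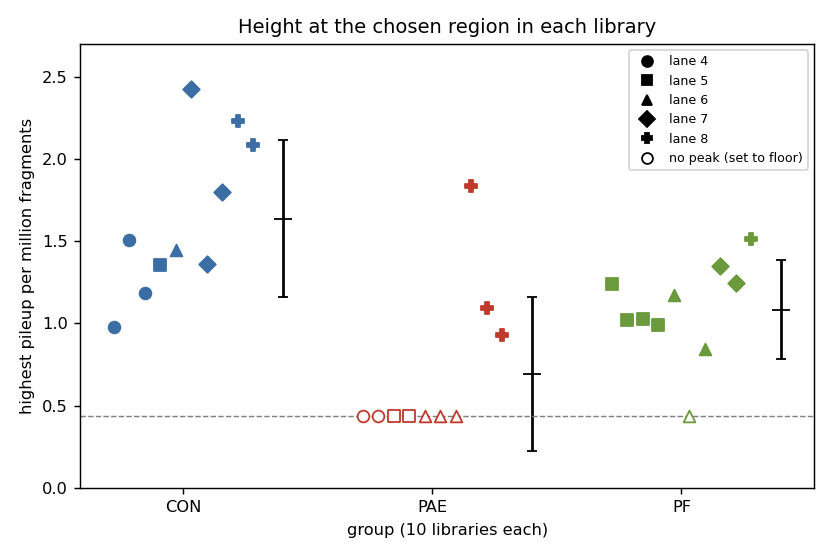
Height at the chosen region (highest pileup per 1000000 fragments) in each of the 30 libraries, by group, with marker shape for the lane, open markers for libraries without a peak (set to the floor of 0.438, dashed line) and bars for mean and SD. All 10 CON markers are filled, and the 3 filled PAE markers are all from lane 8.

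Mean heights were 1.64 ± 0.477 (SD, n = 10) in CON, 1.08 ± 0.299 in PF and 0.693 ± 0.470 in PAE. With labelled sex and lane in the model, the log2 difference was -1.33 (SE 0.19) for PAE minus CON, -0.49 (SE 0.20) for PF minus CON and -0.85 (SE 0.19) for PAE minus PF. The first of these made the choice and the other 2 share a group with it, so no test is read from them. This was the region with the smallest p for PAE minus CON, and the single region of 352026 (0.000284%) that passed an FDR of 0.05 in that contrast (adjusted p = 0.0366, limma). That call was not stable: with 1 library left out it was lost in 23 of 30 fits (adjusted p from 0.00312 to 0.421). The region kept the smallest p in all 30, but those fits reuse the libraries that chose it, so this is a description. The call was also lost without the lane term (adjusted p = 0.464) and after quantile normalization (0.0694), among others given in the closing section. No region passed an FDR of 0.05 for PF minus CON or for PAE minus PF (0% in each).

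The size of the difference depended on what stood in for a missing peak. With each region's own lowest called height as the floor, which at the chosen region was 0.846, the PAE minus CON difference was -0.69, and with a missing peak as 0 and a pseudocount of 0.1 it was -2.85. The lowest called height was well above the common floor, and the surroundings of this region were rich in fragments. The peak caller divides the pileup at a summit by a local background taken over 10000 bp, and this background, recovered from the deposited fold enrichment, was a median of 5.31 fragments at the 36 summits in the chosen region. It was 2.33 fragments at the 5733 summits in the neighbours and 1.92 at all 233038 summits of chromosome 10. Only 3.79% of neighbour summits had a background as high as the lowest one in the chosen region. Fold enrichment at the highest summit was 2.63 to 4.97 in the 10 CON libraries, 2.21 to 3.08 in the 9 PF libraries and 2.22 to 3.35 in the 3 PAE libraries.

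Lane moved with the calls. All 3 PAE libraries with a peak were on lane 8, where the 2 CON libraries and the 1 PF library also had one. Outside lane 8, 8 of 8 CON, 8 of 9 PF and 0 of 7 PAE libraries had a peak. Within lanes, the mean log2 PAE minus CON difference was -1.46 on lane 4 (2 PAE and 3 CON libraries), -1.63 on lane 5 (2 and 1), -1.72 on lane 6 (3 and 1) and -0.81 on lane 8 (3 and 2). The difference was negative on the 4 lanes that held both groups, but the region was chosen by this contrast, so this is a description. On lanes 4, 5 and 6 all PAE libraries were at the floor and all CON libraries had a peak, so the floor set the sign. Without the 6 libraries of lane 8 the fitted difference was -1.55. By litter, both animals of all 5 CON dams had a peak, as had both of 4 PF dams and 1 animal of the other PF dam. In PAE, both animals of 1 dam and 1 animal of another had a peak, and the animals of the other 3 dams had none. Both animals of the first of these dams were on lane 8, and those of the second were split, the one with a peak on lane 8 and the other on lane 4. That was the only PAE litter with animals both on and off lane 8, so lane and litter were largely confounded in PAE. Their separate parts were not tested. The F test over lanes at this region gave an unadjusted p of 5.6e-05 and an adjusted p of 0.0575 (limma), which missed the threshold.

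By labelled sex, peaks were present in 5 of 5 labelled females and 5 of 5 labelled males in CON, in 2 and 1 in PAE, and in 4 and 5 in PF. In the 12 libraries whose sex chromosomes went with the label (3 CON, 6 PAE and 3 PF), the fitted PAE minus CON difference was -1.42. Only 2 of these libraries were labelled female, and no CON library was, so this value rests on few libraries and does not compare the sexes.

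The chosen region was 2557 bp long, against a median of 574 bp for its neighbours, and only 74 tested regions (0.0210%) were as long or longer. That length came from merging peaks that did not all lie in the same place. A single library covered a median of 534 bp of it in CON, 361 bp in PAE and 529 bp in PF. The 36 summits fell into 6 clusters along the region, separated by more than 60 bp, with median positions 297, 693, 1103, 1491, 1884 and 2163 bp from its start. Consecutive clusters were 396, 410, 388, 392.5 and 279.5 bp apart, so the first 5 were nearly evenly spaced.

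**Figure D2:**
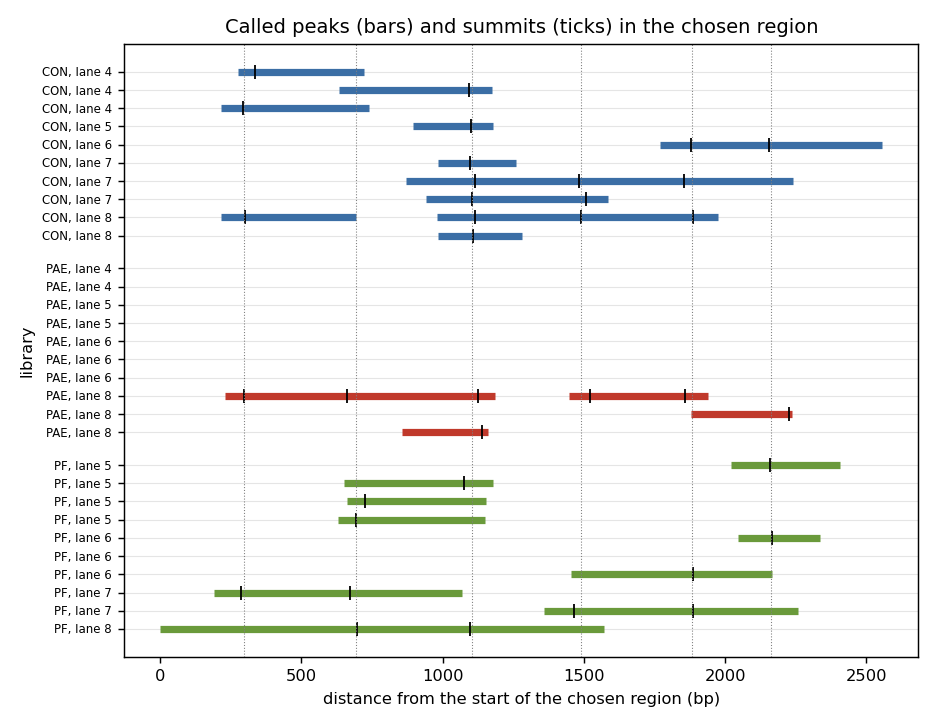
Called peaks (bars) and their summits (ticks) along the chosen region, in bp from its start, 1 row per library ordered by group and lane, with dotted lines at the median position of the 6 summit clusters. Peaks of different libraries cover different stretches, and 7 PAE rows and 1 PF row are empty.

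The libraries shared no single summit cluster. The third, at 1103 bp, was the most common and was used by 7 CON, 2 PAE and 2 PF libraries. The second, at 693 bp, held 4 PF libraries, 1 PAE library and no CON library, and the first, at 297 bp, held 3 CON, 1 PAE and 1 PF. At 1491 bp, 3 CON, 1 PAE and 1 PF library had a summit, at 1884 bp 3 CON, 1 PAE and 2 PF libraries had one, and the last cluster, at 2163 bp, held 1 CON, 1 PAE and 2 PF. One PAE library, replicate 2, had 5 of the 7 PAE summits. A peak in this region therefore did not mean a peak over the same bases in each library.

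The closest neighbour began 317 bp past the end of the chosen region (chr10:98553328-98554024, 697 bp) and was among the 3 highest of the window. It had a peak in 8 CON, 9 PAE and 7 PF libraries. Heights ran from the floor through medians of 2.03 in CON, 1.63 in PAE and 1.72 in PF to highest values of 2.73, 2.58 and 2.55. The groups overlapped over nearly their whole range, and 6 of the 7 PAE libraries without a peak in the chosen region had one here. The log2 difference was -0.50 (SE 0.37) for PAE minus CON (p = 0.192 unadjusted, limma, adjusted p = 0.758).

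This neighbour gives a second but diluted view of the same stretch, because its local background averages the fragments of 10000 bp that take in the chosen region. Scaled to 1000000 fragments, that background was 0.369 ± 0.0579 (SD) in the 8 CON libraries with a peak here, 0.325 ± 0.0729 in the 9 PAE libraries and 0.350 ± 0.0377 in the 7 PF libraries. The ranges overlapped, 0.307 to 0.476 in CON and 0.234 to 0.462 in PAE. The mean was lower in PAE than in CON, by less than the SD of either group. The called peaks of a CON library covered a median of 534 bp of the chosen region, a small part of the 10000 bp averaged. Only libraries with a peak at this neighbour entered, and lane was not fitted. These values therefore cannot show whether the chosen region itself differed.

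The other 4 of the 5 nearest on the right lay 14.1 to 21.1 kb away. The region at chr10:98567088-98567627 had a peak in all 30 libraries, with heights of 0.711 to 1.89 in CON, 0.644 to 1.65 in PAE and 0.725 to 1.31 in PF, and a PAE minus CON difference of -0.09 (SE 0.19). The regions at chr10:98570471-98570765 and chr10:98572215-98572590 had peaks in 2, 2 and 2 and in 1, 4 and 2 libraries of CON, PAE and PF, with differences of -0.03 and 0.40. The region at chr10:98574077-98574436 had a peak in 4 CON libraries, no PAE library and 1 PF library, and a difference of -0.38 (SE 0.16, p = 0.0211 unadjusted, adjusted p = 0.661, limma). Libraries with a peak there were few in every group.

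On the left the 5 nearest lay 6.01 to 23.2 kb away, and 4 of the 5 had PAE minus CON differences above 0. From the nearest outwards, chr10:98544018-98544445 had a peak in 2 CON, 1 PAE and 1 PF library, chr10:98540187-98541094 in 5, 8 and 7, and chr10:98533954-98535182 in 5, 7 and 7. Their PAE minus CON differences were 0.04, 0.28 and 0.13. The region at chr10:98526574-98527208 had a peak in 1 CON, 6 PAE and 4 PF libraries and a difference of 0.22. The exception, chr10:98529614-98530149, had a peak in 7, 5 and 5 libraries, with differences from the shared CON libraries of -0.57 (SE 0.24, p = 0.0248 unadjusted) in PAE and -0.64 (SE 0.25, p = 0.0152 unadjusted) in PF (adjusted p = 0.662 and 0.773, limma).

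**Figure D3:**
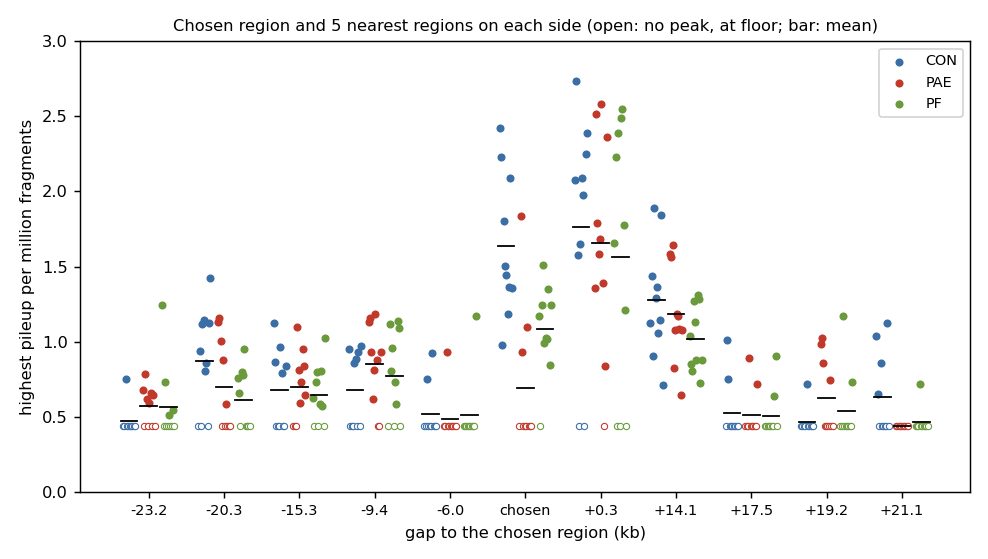
Heights (highest pileup per 1000000 fragments) of the chosen region and the 5 nearest regions on each side, labelled by the gap in kb, with 1 point per library, open points for libraries without a peak and short bars for group means. The PAE points at the chosen region are mostly open, while the region 0.3 kb to its right has filled points at similar heights in the 3 groups.

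Over all 405 neighbours, the median log2 PAE minus CON difference was -0.06, and that of all 352026 tested regions was -0.05. The lower and upper quartiles of the neighbours were -0.23 and 0.06, and the whole range ran from -1.19 to 0.89. Differences were negative at 257 neighbours (63.5%), and at 63.2% of all tested regions. In the other 17750 regions of chromosome 10 the median was also -0.06. The size of both medians depended on the processing: neighbours and all regions were at -0.02 and -0.02 after median ratio scaling, -0.01 and -0.01 after quantile normalization (53.8% of neighbours negative) and -0.19 and -0.15 with a pseudocount of 0.1. For PF minus CON the medians were -0.04 in the neighbours and -0.03 in all regions, and for PAE minus PF -0.03 and -0.02.

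Counts at an unadjusted p under 0.05 are set beside those of all regions; the window was placed by the PAE minus CON difference and the other contrasts share libraries with it, so nothing further is read from them. Against CON, 30 neighbours were lower in PAE (7.41%, beside 6.03% of all regions) and 7 were higher (1.73%, beside 1.34%). In PF, 18 were lower than in CON (4.44%, beside 4.39%) and 10 higher (2.47%, beside 2.06%). Between PAE and PF, 13 were lower in PAE (3.21%, beside 2.95%) and 7 higher (1.73%, beside 1.51%). The smallest adjusted p among the neighbours was 0.661 for PAE minus CON, 0.773 for PF minus CON and 0.988 for PAE minus PF (limma, Benjamini-Hochberg). The lower PAE count depended on the scaling: after median ratio scaling it was 17 lower and 9 higher (4.06% of all regions lower), and after quantile normalization 12 lower and 11 higher (3.26% lower).

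By distance, the 40 neighbours within 100 kb had a median PAE minus CON difference of -0.02, the 61 between 100 and 250 kb -0.04, the 106 between 250 and 500 kb -0.06 and the 198 farther out -0.10. The values closest to the chosen region were nearer to 0 than those at the edges. Lower neighbours at an unadjusted p under 0.05 numbered 4, 6, 8 and 12 in these bins, or 10.0%, 9.84%, 7.55% and 6.06%, beside 6.03% of all regions. Higher ones numbered 0, 0, 4 and 3 (0%, 0%, 3.77% and 1.52%, beside 1.34%). The PF minus CON medians in these bins were -0.06, -0.02, -0.04 and -0.05. Lower PF neighbours numbered 3, 2, 2 and 11 (7.50%, 3.28%, 1.89% and 5.56%, beside 4.39%). Higher PF neighbours numbered 0, 1, 2 and 7 (0%, 1.64%, 1.89% and 3.54%, beside 2.06%). Within 100 kb the median PAE minus PF difference was 0.04. By side, the median was -0.07 on the left with 18 such neighbours (8.65%) and -0.06 on the right with 12 (6.09%), beside 6.03% of all regions. Neighbours called in at least 10 libraries had a median of -0.12 (n = 202), against -0.10 for all such regions, and those called in all 30 a median of -0.09 (n = 15), against -0.11.

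**Figure D4:**
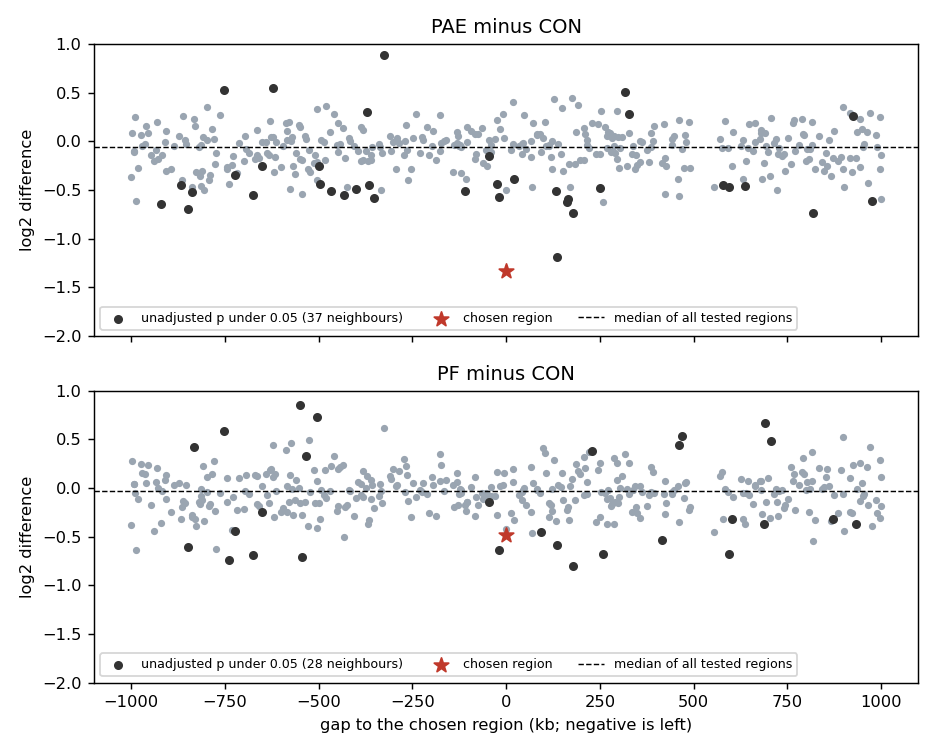
Log2 difference of each of the 406 regions against its gap to the chosen region in kb, for PAE minus CON (top) and PF minus CON (bottom), with dark points for unadjusted p under 0.05 and a dashed line at the median of all tested regions. The neighbours scatter around the dashed line at every distance, and the star of the chosen region stands below them in the upper panel.

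Calls alone need no floor. Neighbours had a peak in a mean of 174 ± 25.9 (SD, n = 10) places per CON library, 154 ± 28.9 per PAE library and 165 ± 22.7 per PF library. These counts were in proportion to the peaks of each library elsewhere, since they made up 0.127% ± 0.00566, 0.125% ± 0.00703 and 0.126% ± 0.00570 of the tested regions that had a peak in it. Called in at least 5 more CON than PAE libraries were 6 neighbours (1.48%, beside 1.39% of all regions), and the reverse held for 2 (0.494%, beside 0.568%). The chosen region, with a margin of 7, was beyond all of them.

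**Figure D5:**
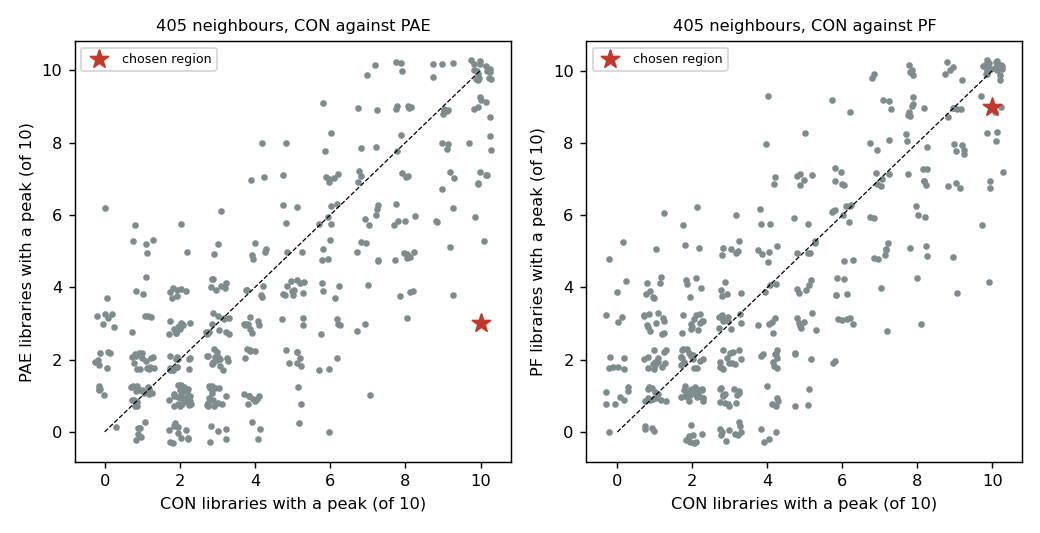
Number of CON libraries with a peak against the number of PAE (left) or PF (right) libraries with one, for each of the 405 neighbours (points, shifted slightly so that they do not overlap) and the chosen region (star), with a dashed line of equality. The star lies at 10 CON and 3 PAE libraries, away from the cloud, and at 10 CON and 9 PF libraries within it.

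The 3 lowest PAE minus CON differences belonged to the chosen region and 2 distant regions. The region at chr10:98687929-98688353, 135 kb to the right and 425 bp long, had a peak in 6 CON libraries, 4 PF libraries and no PAE library. Its CON peaks were 0.779, 1.36, 1.37, 1.37, 1.42 and 1.44, its PF peaks 1.09, 1.11, 1.27 and 1.32, and the PAE libraries were all at the floor. The log2 difference was -1.19 (SE 0.27, p = 0.000113 unadjusted, adjusted p = 0.661, limma). Of the neighbours it had the most negative difference, and 4 CON libraries lacked a peak there as well. The region at chr10:99371447-99372586, 818 kb to the right, had peaks in 6 CON, 2 PAE and 3 PF libraries and a difference of -0.74 (SE 0.31, adjusted p = 0.661, limma).

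Differences in the other direction were found in the same window. The highest was 0.89 (SE 0.30, p = 0.00647 unadjusted, adjusted p = 0.661, limma) at chr10:98222646-98224062, 326 kb to the left and 1417 bp long, with peaks in 4 CON, 8 PAE and 7 PF libraries. Its called heights spanned 1.20 to 1.97 in CON and 0.645 to 1.97 in PAE, so that the difference lay in how many libraries had a peak and not in how high the peaks were. The lane F test gave an adjusted p of 0.0843 there. The next were 0.55 at chr10:97928407-97929182 (2, 5 and 2 libraries) and 0.53 at chr10:97798151-97798828 (8, 10 and 9).

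For PF minus CON, the 3 smallest p among the members were at chr10:97999911-98000618 (0.85, SE 0.27), chr10:97874070-97874889 (-0.68, SE 0.22) and chr10:99148216-99149100 (-0.67, SE 0.22), with an adjusted p of 0.773 at each (limma). They were 1 higher and 2 lower, and lay 550 kb and 676 kb to the left and 595 kb to the right. At the second, 4 CON libraries had a peak of 1.12 to 1.65, 1 PAE library had one of 0.681 and no PF library had any. For PAE minus PF, beside the chosen region, they were chr10:98082149-98082836 (-0.74, SE 0.25) and chr10:97719089-97719964 (0.48, SE 0.17), with an adjusted p of 0.988 at both (limma).

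High peaks were present throughout the window in all groups. The highest median height was at chr10:98727739-98728210, 175 kb to the right, where 7 CON libraries reached 3.23 to 5.46, all 10 PAE libraries 1.87 to 5.29 and 9 PF libraries 1.61 to 4.13. The 3 CON libraries without a peak there stood apart from the other 7, and the fitted PAE minus CON difference was 0.44 (SE 0.42). At chr10:97578528-97578986, 971 kb to the left, 9 CON, 10 PAE and 10 PF libraries had a peak, with medians of 1.79, 1.42 and 1.66.

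One member had the same start and end as a DMR in the lists of the study, chr10:98508943-98509386, 41.1 kb to the left. In the peak lists it was a weak region: 1 CON library had a peak of 0.504, 2 PF libraries had peaks of 0.439 and 0.544, and no PAE library had one. The log2 difference was -0.04 (SE 0.04) for PAE minus CON and 0.01 (SE 0.04) for PF minus CON. No other DMR listed by the study overlapped the window, so the study listed none at the chosen region. Its lists hold regions significant in 2 contrasts, so a region significant only for PAE against CON would be absent from them.

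As a set of peak regions, the neighbourhood was ordinary in shape and somewhat dense. It held 203 tested regions per Mb, against 161 per Mb over chromosome 10. Neighbour length ranged from 265 to 1951 bp (median 574 bp), beside a median of 544 bp for all tested regions. They had a peak in a median of 9 libraries, beside 8, and 15 of them (3.70%, beside 3.38%) had a peak in all 30. The longest stretch without a member was 63.5 kb, between 491 and 555 kb to the right of the chosen region.

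Lane and labelled sex were tested over the same neighbours. The F test over lanes gave an unadjusted p under 0.05 at 49 neighbours (12.1%, beside 13.6% of all regions) and passed an FDR of 0.05 at none, with a smallest adjusted p of 0.0580 (limma). The interaction of PAE minus CON with labelled sex gave an unadjusted p under 0.05 at 21 neighbours (5.19%, beside 4.87%) and a smallest adjusted p of 0.942 (limma). As 18 of the 30 labels went against the sex chromosomes, this interaction compares the labels and not the sexes. Within lanes, the median PAE minus CON difference of the neighbours was 0 on lanes 4, 5 and 6 and -0.07 on lane 8, beside 0, 0, 0 and -0.02 for all tested regions. These lanes held 2 PAE and 3 CON, 2 and 1, 3 and 1, and 3 and 2 libraries. The median height of the neighbours was the floor itself, 0.438. Ties at the floor can give a median of 0, so these values do not show that the groups were alike within lanes.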

How the data were processed

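DNAm was measured by meDIP-seq in 30 PFC samples. Groups, labelled sex, dam and lane came from the labels. Reads were aligned by the authors to Rn6 with BWA, and MACS2 2.1.4 called peaks library by library from fragment pairs (q-value cutoff 0.05, no input control). The deposited signal of a peak is its pileup, unscaled coverage at the summit. The deposited fold enrichment, a ratio of pileup to local background with 1 added to each, gave the local background, and the deposited −log10 q-value set the stricter threshold of 0.01. The study's own tests ran with edgeR on reads not used here.

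Rows of one peak were joined, autosomal peaks overlapping by 1 bp were merged (604866 regions), and 352026 called in at least 3 libraries were fitted on log2(height), with a common floor of 0.438, the highest of the libraries' lowest peak heights. The fit used limma 3.58.1 in R 4.3.3, trended prior variance, with group, labelled sex and lane, and Benjamini-Hochberg adjustment over all 352026 regions, two-sided. Fold changes depend on the floor: an animal without a peak may lie below or above it, so they can be understated or overstated. Heights carry counting error from 11548314 to 16555049 fragments per library. Named regions were the chosen region, the 5 nearest on each side, any identical to a listed DMR, the 3 lowest and 3 highest PAE minus CON differences, the 3 smallest p for each other contrast, the 3 highest medians and the longest. The members and all lists were chosen with earlier results of these data known. Scripts were tested on simulated data.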

Additional observations from a re-analysis of the deposited data

Results flagged for a closer look

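In 16 of the 68 groups of 10 libraries examined over the 24 named regions, the highest library stood apart from the rest by Dixon's criterion. Chance alone marks about 1 in 20 groups of normally distributed values, which these heights were not. In the 16 marked groups 6 to 9 of the 10 libraries were at the floor of 0.438, so the criterion marked mostly a single called peak or a pair.

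At the chosen region, PAE replicate 2 (1.84) stood above the next PAE library (1.10), with 7 libraries at the floor. At the nearest region on the left (chr10:98544018-98544445) single peaks of 0.930 in PAE and 1.17 in PF stood alone. At chr10:98526574-98527208, 23.2 kb to the left, the CON peak of 0.752 was alone and the highest PF peak was 1.24. At the listed DMR (chr10:98508943-98509386) the highest values were 0.504 in CON and 0.544 in PF. To the right, the highest PF library was at 0.906 at chr10:98570471-98570765 and at 0.716 at chr10:98574077-98574436. At chr10:98572215-98572590 the highest was 0.716 in CON and 1.17 in PF. Farther away, the highest was 0.681 in PAE at chr10:97874070-97874889, 1.12 in CON at chr10:97928407-97929182 and 0.879 in PF at chr10:99148216-99149100. At chr10:99371447-99372586 it was 1.63 in PAE and 1.67 in PF.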

How the results depend on the processing

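Alternatives changed the floor, scaling, model terms, peak threshold, library minimum, window and libraries; 3 of them (each region's own floor, libraries without lane 8, libraries with matching sex chromosomes) and all alternatives for lane and interaction were added after seeing the data. The chosen region's PAE minus CON difference was -2.85 with a pseudocount of 0.1 and -0.69 with each region's own floor. It was negative in every alternative, a description only, because all of them reuse libraries that chose the region. Its p ranked 1st of all regions in 10 of 13 alternatives, 3rd with each region's own floor (adjusted p = 0.373), 18th with peaks under q 0.01 (difference -1.10, adjusted p = 0.646) and 269th in the libraries with matching sex chromosomes (0.721). The call was also lost without the lane term (0.464), with the pseudocount (0.207), after quantile normalization (0.0694), without lane 8 (0.0604) and with 1 library left out in 23 of 30 fits. Neighbours lower in PAE than CON, lower in PF than CON and lower in PAE than PF numbered 30, 18 and 13 as reported. They numbered 19, 11 and 7 among regions called in 10 or more libraries (9.41%, 5.45% and 3.47%, beside 6.81%, 4.40% and 3.40% of all regions). In the 0.5 Mb window, where fewer regions entered, they were 18, 7 and 5 (8.70%, 3.38% and 2.42%, beside 6.03%, 4.39% and 2.95%). In the 12 libraries with matching sex chromosomes they were 19, 11 and 21 (4.69%, 2.72% and 5.19%, beside 4.31%, 2.27% and 3.41%), and without lane 8 17, 25 and 6 (4.20%, 6.17% and 1.48%, beside 2.94%, 4.43% and 1.90%). Lower than CON were 17 (PAE) and 9 (PF) after median ratio scaling (4.20% and 2.22%, beside 4.06% and 3.38%) and 12 and 9 after quantile normalization (2.96% and 2.22%, beside 3.26% and 2.84%). The cause was not tested. Scaling also moved the split of PF against CON, from 18 lower and 10 higher to 9 lower and 11 higher (median ratio) or 9 and 13 (quantile). The interaction count was 6 among regions called in 10 or more libraries (2.97%, beside 4.90%), against 21. Neighbour medians moved by less than the SD between libraries (0.18 log2) in every alternative. That SD is larger than the reported PAE minus CON median of -0.06, so staying within it does not show stability. The PAE minus CON median ran from -0.19 with the pseudocount to -0.01 after quantile normalization. Leaving out 1 library at a time gave -1.44 to -1.25 at the chosen region. It gave neighbour medians of -0.08 to -0.05 (PAE minus CON), -0.05 to -0.03 (PF minus CON) and -0.05 to -0.01 (PAE minus PF). Counts ran from 20 to 38, 11 to 25 and 6 to 15. For PAE against CON these extremes were 4.94% (beside 5.20% of all regions) and 9.38% (7.03%). They were 2.72% (4.23%) and 6.17% (4.85%) for PF against CON, and 1.48% (2.15%) and 3.70% (2.96%) for PAE against PF. The lowest PF against CON count came without PF replicate 7 and the lowest PAE against PF count without PF replicate 4. A random effect of litter (correlation -0.0236) gave 33, 21 and 13 (8.15%, 5.19% and 3.21%, beside 6.30%, 4.60% and 3.11%). The groups came from different dams. Each PF dam was matched to a PAE dam, but the labels do not name the partner and replicate numbers only name a library. No paired analysis was therefore made. Depth limits the result through the floor: coverage below the calling threshold is unseen.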
